A study of Mus musculus with 4 samples.

Results

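The genes described here are the DNA replication licensing and fork genes, 49 genes whose products load the replicative helicase on origins, start it, copy the strands and rebuild chromatin behind the fork. The 49 names were listed by role, with earlier results of these data known, and every probe of the bead array whose gene name or platform symbol matched a name was taken. All 49 names were found, on 96 of the 45281 probes. Of these probes, 80 were detected and 16 were not, and 48 of the 49 genes had at least 1 detected probe, against 10443 genes tested on the whole array. The exception was Pola1, the catalytic subunit of DNA polymerase alpha, whose single probe was not detected on any array.

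RNA came from lineage-negative mouse bone marrow, the fraction left when cells with mature blood cell antigens are removed, which is rich in dividing progenitors. The deletion group was Atad3afl/flMx1Cre (2 arrays) and the control group was Atad3afl/fl (2 arrays), and both carried floxed Atad3a and were sampled on day 12 after poly I:C. Atad3a encodes a protein of the mitochondrial inner membrane, and poly I:C turns on Mx1Cre, a recombinase under an interferon-responsive promoter that acts in blood-forming cells and in other interferon-responsive tissues. The transgene was present in the deletion group alone, so the presence of Cre and the loss of Atad3a cannot be told apart. The labels do not say whether replicates came from separate animals, and they give no age, so the p-values cover the spread among these 4 samples, which may be technical. Atad3a checked the labels: its log2 intensity averaged 9.92 ± 0.12 in deletion samples and 10.99 ± 0.09 in control samples (SD, n = 2 each), with no overlap, and was 2.10-fold lower (log2 change -1.07, SE 0.13, limma adjusted p = 0.00866). That fall did not pass without deletion replicate 2 (adjusted p = 0.0646), and where its probe lies relative to the deleted part of the gene was not analysed here.

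Replication is prepared and started in separate phases of the cycle. In G1 the origin recognition complex, Cdc6 and Cdt1 place inactive MCM helicases on DNA, which is licensing. In S phase kinases recruit Cdc45 and the GINS complex to the helicase, which is firing, and polymerases, a sliding clamp and its loader then follow the fork. Many of these genes are textbook targets of E2F transcription factors and are expressed in cycling cells, so in bone marrow their RNA is known as a mark of the dividing progenitor pool.

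The promoters of the genes were searched for E2F-type sequences because E2F is the textbook regulator of the group. The letters searched were TTCCCGC and then TTGGCGC and then TTCGCGC and then TTGCCGC, on both strands, in RefSeq windows of build GRCm38.p6 that run from 250 bases before to 50 bases after each start. Windows were present for 40 of the 49 genes. An E2F-type match stood in the windows of 27 of these 40 genes (67.5%), against 19.4% of the 8403 tested genes with a window and 10.9% of all 27025 genes in the table. The NF-Y-type letters CCAAT stood in 60% of the 40 genes, against 43.2% of tested genes, and the CHR-type letters TTTGAA or TTCGAA in 22.5%, against 16.6% of tested genes. The kinds were counted separately, so a base may belong to matches of more than 1 kind, and E2F-type matches on opposite strands may overlap. A match describes letters in a window and is neither a binding site nor a cause of any change.

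The sequences below belong to the gene with the largest fall of its step that holds a match in the window: Orc1 for licensing, Gins3 for firing, Fen1 for the clamp, Rpa3 for single-strand binding and Chaf1a for chromatin assembly. No polymerase gene is shown, because those that fell, Prim2 and Pole, had no window in the table and were not searched. Gins1, the firing gene with the largest fall, had no window either, nor did Gins2, Gins4, Mcm4, Gmnn, Rfc2 and Tipin. Cdc25a, a firing gene that did not fall, is shown for contrast and was chosen after its values were seen. Each runs 5′ to 3′ on the gene's strand, from 250 bases before to 30 after the start, with the E2F-type matches in capitals. The match began 27 bases before the start in Orc1 (chr4:108579204-108579483, plus strand) and 41 bases before it in Gins3 (chr8:95633309-95633588, plus strand). It began 34 bases before 1 of the 2 starts of Fen1 (chr19:10203892-10204171, minus strand) and 29 bases before that of Rpa3 (chr6:8259112-8259391, minus strand). Chaf1a (chr17:56040166-56040445, plus strand) held 2 matches, 56 and 47 bases before the start. In Cdc25a (chr9:109875329-109875608, plus strand) TTGGCGC was read on both strands in overlap, from 66 bases before the start.
Orc1: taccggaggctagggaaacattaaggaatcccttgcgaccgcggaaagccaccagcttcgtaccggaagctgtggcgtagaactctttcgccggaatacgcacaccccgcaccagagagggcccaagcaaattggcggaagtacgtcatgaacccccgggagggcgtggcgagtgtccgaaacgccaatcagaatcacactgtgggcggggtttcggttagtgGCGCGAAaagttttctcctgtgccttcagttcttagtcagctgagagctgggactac
Gins3: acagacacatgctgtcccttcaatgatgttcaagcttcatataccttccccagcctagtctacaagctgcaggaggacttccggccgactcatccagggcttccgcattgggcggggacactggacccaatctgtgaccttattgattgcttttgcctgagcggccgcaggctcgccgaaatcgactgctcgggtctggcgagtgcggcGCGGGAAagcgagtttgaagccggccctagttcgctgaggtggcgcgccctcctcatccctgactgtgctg
Fen1: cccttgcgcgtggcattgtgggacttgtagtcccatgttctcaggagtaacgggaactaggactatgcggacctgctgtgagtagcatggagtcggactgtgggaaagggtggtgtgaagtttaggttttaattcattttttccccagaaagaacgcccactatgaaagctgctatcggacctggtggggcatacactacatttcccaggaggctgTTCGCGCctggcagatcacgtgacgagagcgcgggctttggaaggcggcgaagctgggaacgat
Rpa3: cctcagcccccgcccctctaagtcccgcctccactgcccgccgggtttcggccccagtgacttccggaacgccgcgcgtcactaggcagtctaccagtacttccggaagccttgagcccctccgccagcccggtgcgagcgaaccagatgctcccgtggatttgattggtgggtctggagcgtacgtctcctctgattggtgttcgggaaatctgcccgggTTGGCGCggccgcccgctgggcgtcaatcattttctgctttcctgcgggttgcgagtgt
Chaf1a: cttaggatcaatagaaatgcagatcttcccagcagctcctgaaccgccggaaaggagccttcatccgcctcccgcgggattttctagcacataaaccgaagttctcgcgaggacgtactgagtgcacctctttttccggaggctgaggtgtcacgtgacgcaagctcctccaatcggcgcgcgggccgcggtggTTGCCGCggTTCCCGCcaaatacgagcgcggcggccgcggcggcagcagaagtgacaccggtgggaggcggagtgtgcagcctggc
Cdc25a: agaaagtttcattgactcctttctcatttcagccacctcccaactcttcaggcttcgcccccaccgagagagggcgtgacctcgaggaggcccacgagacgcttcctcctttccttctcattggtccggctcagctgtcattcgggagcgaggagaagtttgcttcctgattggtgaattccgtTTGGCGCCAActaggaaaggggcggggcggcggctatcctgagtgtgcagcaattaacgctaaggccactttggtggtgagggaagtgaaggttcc

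The matches of Orc1, Fen1, Rpa3 and Gins3 lay within 41 bases of the start, and those of Chaf1a and Cdc25a a little farther upstream. Genes that fell and genes that did not both held matches: 15 of the 20 lower genes with a window (75%) and 11 of the 19 that did not pass (57.9%). The genes without a match were Mcm2, Orc5, Orc6, Cdc45 and Rpa1, which fell, and Orc2, Mcm10, Pcna, Dbf4, Rfc5, Timeless, Pold2 and Pola2, which did not pass. Whether matches and calls went together was not tested.

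Replication genes were lower across the pathway in deletion samples. By the brightest detected probe, 26 of 48 genes fell (54.2%), 22 did not pass and 0 rose, while among all tested genes 14.2% fell and 14.8% rose (limma, Benjamini-Hochberg over 18367 probes, adjusted p under 0.05). At an unadjusted p under 0.05, 37 genes were lower and 0 were higher, where 21.9% of all tested genes were lower and 22.8% higher. The log2 change was negative for 46 of the 48, and the exceptions were Orc4 (0.21) and Cdc25a (0.16), neither of which passed. The deletion arrays were both under the lower control array for 43 of the 48, against 36.2% of all tested genes. The median log2 change was -0.57 (quartiles -0.76 and -0.33), beside 0.00 over all tested genes (quartiles -0.33 and 0.36). The changes were modest: 4 of the 48 genes passed and fell at least 2-fold, namely Orc1, Cdc6, Mcm7 and Fen1, where 5.94% of all tested genes did so. Both deletion samples showed the shift, with a median of -0.58 in deletion replicate 1 and -0.60 in deletion replicate 2, both relative to the mean of the control arrays. In bulk RNA, fewer cycling cells and less of each RNA per cell cannot be told apart.

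**Figure D1:**
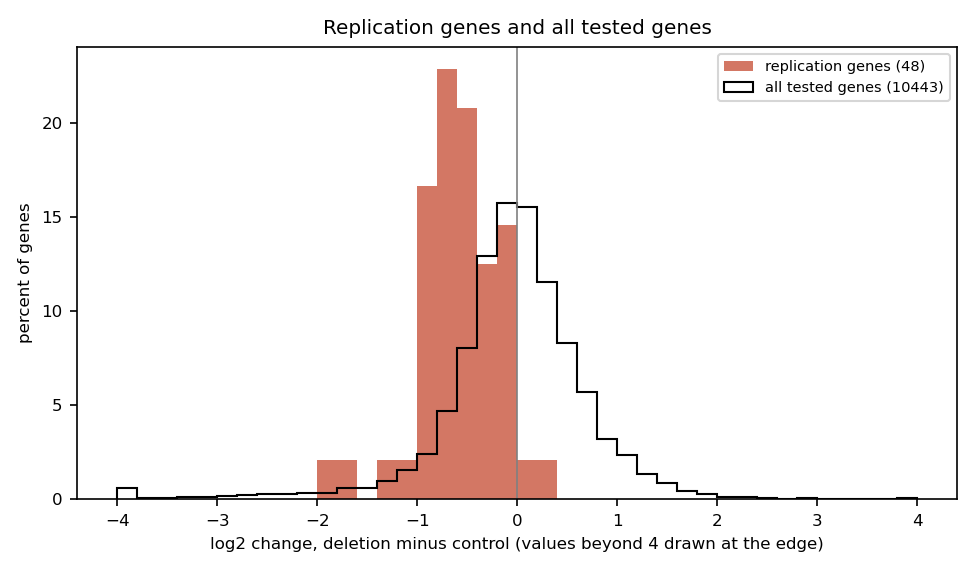
Distribution of the log2 change, deletion minus control, for the 48 detected replication genes (filled) and all 10443 tested genes (outline), as percent of genes per bin, with values beyond 4 drawn at the edge. The replication genes centre at -0.57 and all tested genes at 0.00, and 2 replication genes lie right of 0.

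With 2 arrays a group the number of calls depended on single arrays, while the median shift over all detected replication genes together moved little. The genes that fell numbered 24 without control replicate 1, 16 without control replicate 2, 4 without deletion replicate 1 and 1 without deletion replicate 2, while the median stayed between -0.61 and -0.50. Over all tested genes the lower calls dropped in the same order, to 13.2%, 8.95%, 4.44% and 4.18% of genes, against 14.2% with every array, so the single call without deletion replicate 2 is not above that background. At an unadjusted p under 0.05, 27 genes were lower without deletion replicate 1 and 23 without deletion replicate 2, against 14.9% and 14.3% of all tested genes in the same fits. Cdc6 fell under all 4 omissions, and Orc5, Mcm7 and Fen1 joined it without deletion replicate 1. Counts under omission that are given below by step and list are to be read beside the shares of all tested genes given here. An exact permutation of 2 samples against 2 cannot give a two-sided p below 0.333, so the calls rest on the spread shared across probes. By signal level, 24 of the 39 genes with a mean log2 intensity of at least 8 fell, against 13.7% of all tested genes in that range, and 2 of the 9 dimmer genes did, against 14.8%.

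**Figure D2:**
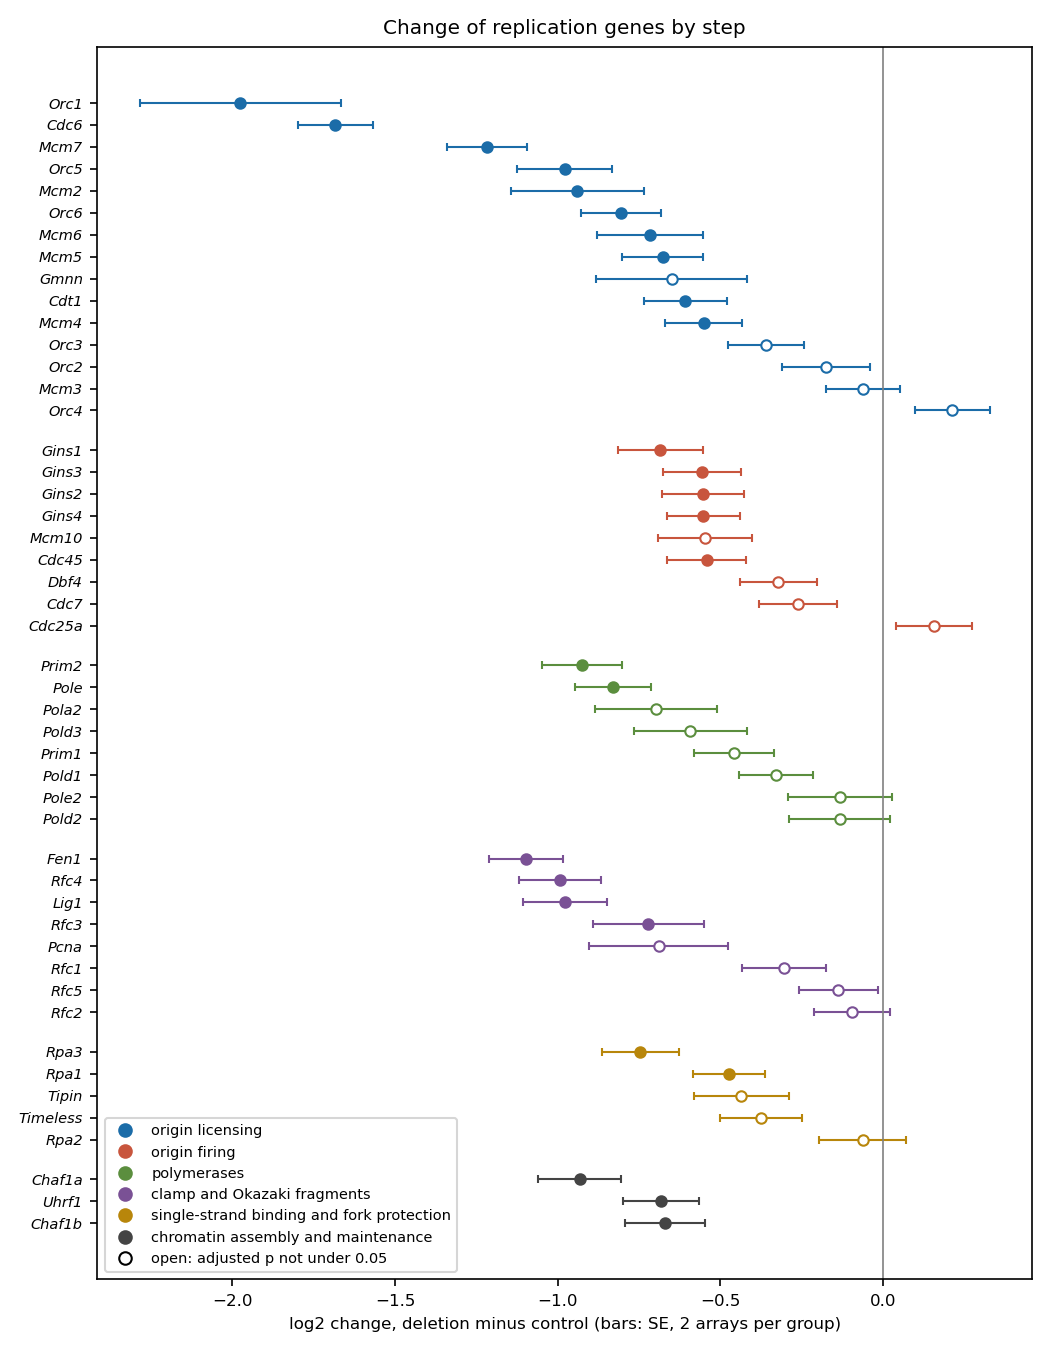
Log2 change, deletion minus control, of each detected replication gene by its brightest detected probe, grouped by step from licensing at the top to chromatin assembly at the bottom. Bars are SE with 2 arrays a group, filled points passed (adjusted p under 0.05) and open points did not. The largest falls, Orc1 (-1.98) and Cdc6 (-1.68), are licensing genes.

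The largest single falls, those of Orc1 and Cdc6, were in licensing genes. Of 15 genes, 10 fell, 5 did not pass and 0 rose, where 14.2% of all tested genes fell. The median log2 change was -0.68, beside -0.71 for clamp and Okazaki fragment genes, -0.68 for chromatin assembly and smaller falls for the other steps. Differences between steps were not tested. Orc1, an ATPase and the largest subunit of the origin recognition complex, had log2 intensities of 5.74 and 5.74 in deletion samples, against 7.27 and 8.16 in control samples. The groups were well apart, although the control arrays differed more from each other than the deletion arrays did. Orc1 was 3.93-fold lower (log2 change -1.98, SE 0.31, limma adjusted p = 0.0153), and it no longer passed without deletion replicate 1 (adjusted p = 0.0783) or deletion replicate 2 (0.0812). Cdc6, the ATPase that joins the complex on origins and recruits the helicase, had 9.20 and 9.19 in deletion samples, against 10.93 and 10.83 in control samples. Its replicates were nearly level within each group, and it was 3.21-fold lower (log2 change -1.68, SE 0.11, limma adjusted p = 0.00254). A second Cdc6 probe fell as well, by 1.21 on the log2 scale (limma adjusted p = 0.00776).

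The origin recognition complex did not move as a block. Orc5 had 9.22 and 8.92 in deletion samples, against 10.03 and 10.07 in control samples, a log2 change of -0.98 (limma adjusted p = 0.0138), and its second probe also fell (-1.03). Orc6 had 10.36 and 10.48 in deletion samples, against 11.16 and 11.29 in control samples, a log2 change of -0.81 (limma adjusted p = 0.0147). Both subunits were lower on each deletion array than on either control array. Orc2 (-0.17) and Orc3 (-0.36) did not pass. Orc4 had 6.83 and 6.87 in deletion samples and 6.59 and 6.68 in control samples (log2 change 0.21, limma adjusted p = 0.228), and of its other detected probes 1 had a change of 0.11 and the other -0.30, with none passing. So 3 of 6 subunits fell, and differences between subunits were not tested.

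Most genes of the loading factors and the helicase fell by their brightest probe. Cdt1, which delivers the helicase to origins, had 11.41 and 11.35 in deletion samples, against 11.89 and 12.08 in control samples (log2 change -0.61, limma adjusted p = 0.0306). Gmnn, which encodes geminin, the inhibitor of Cdt1, had 4.73 and 5.05 in deletion samples, against 5.27 and 5.81 in control samples (log2 change -0.65, limma adjusted p = 0.101). Its groups did not overlap, but its probe was dim and was detected on 1 of 2 deletion arrays. Of the 6 subunits of the MCM2-7 helicase, 5 fell. Mcm7 had 9.96 and 9.83 in deletion samples, against 11.06 and 11.17 in control samples, and was 2.33-fold lower (log2 change -1.22, SE 0.12, limma adjusted p = 0.00586). That call rests on the brighter of its 2 probes: with the mean of both, the log2 change of Mcm7 was -0.20 and did not pass (limma adjusted p = 0.529). Mcm2 had 10.16 and 10.24 in deletion samples, against 10.88 and 11.40 in control samples (log2 change -0.94, limma adjusted p = 0.0332). Mcm6 (-0.72), Mcm5 (-0.68) and Mcm4 (-0.55) fell less, with all 3 lower on both deletion arrays than on both control arrays, and the mean of the Mcm6 probes was -0.37 and did not pass (adjusted p = 0.0513). Mcm3 stood apart from them in value: it had 9.51 and 9.56 in deletion samples and 9.56 and 9.63 in control samples (log2 change -0.06, SE 0.11, limma adjusted p = 0.703), by the only probe the array has for it. Whether Mcm3 differed from the other subunits was not tested. The median log2 change of the licensing genes was -0.87 without control replicate 1, -0.53 without control replicate 2 and -0.72 without deletion replicate 1 or 2. Only Orc5, Cdc6 and Mcm7 still passed without deletion replicate 1, and only Cdc6 without deletion replicate 2. Lower calls became fewer over all tested genes too.

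**Figure D3:**
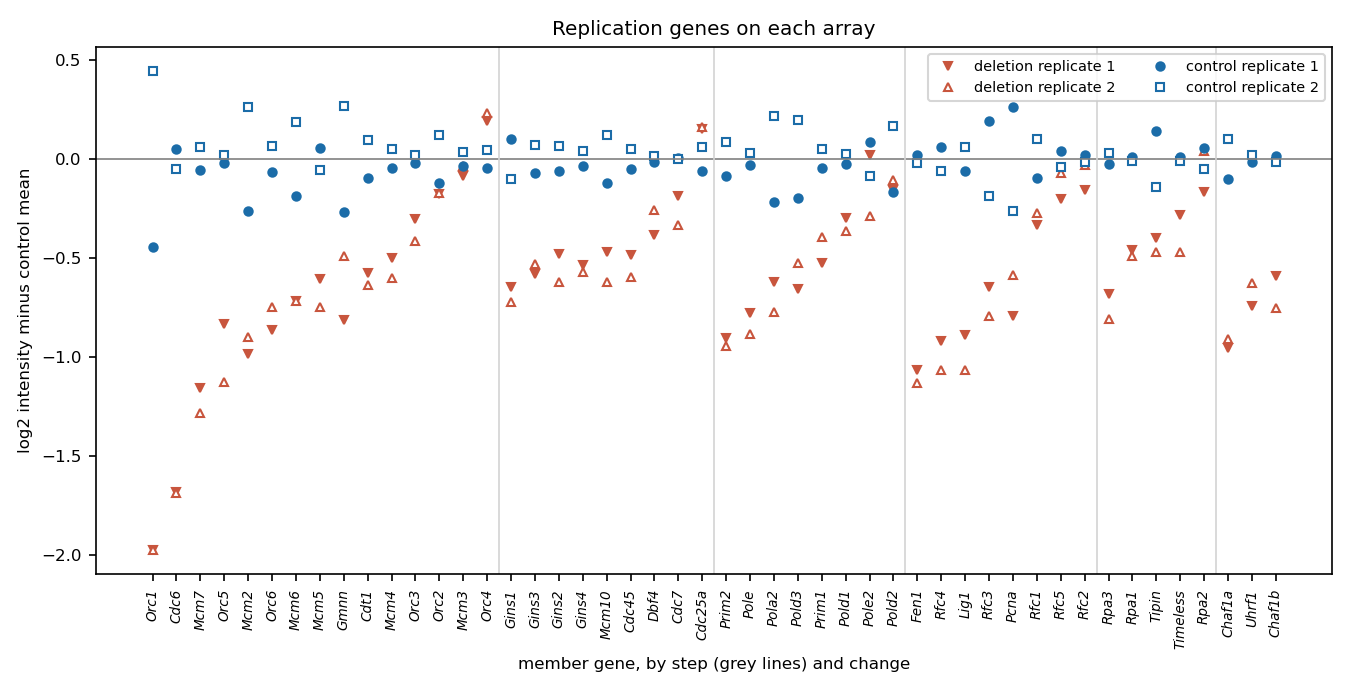
Log2 intensity minus the mean of the 2 control arrays for each detected replication gene, with triangles for deletion samples and circles or squares for control samples, ordered by step (separated by grey lines) and by change. Deletion points lie below both control points for 43 of 48 genes, and Orc4 and Cdc25a lie above them.

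Firing genes had log2 changes between -0.68 and 0.16, a narrower range than that of licensing genes. Of 9 genes, 5 fell, 4 did not pass and 0 rose, where 14.2% of all tested genes fell. The median log2 change was -0.55. All 4 GINS subunits, which bind the helicase together with Cdc45 to form the active motor, fell within a narrow range. Gins1 had 9.03 and 8.96 in deletion samples, against 9.78 and 9.58 in control samples, 1.61-fold lower (log2 change -0.68, SE 0.13, limma adjusted p = 0.0245). Gins3 had 7.38 and 7.42 in deletion samples, against 7.89 and 8.03 in control samples (log2 change -0.56, limma adjusted p = 0.0326). Gins4 had 10.78 and 10.74 in deletion samples, against 11.27 and 11.35 in control samples (log2 change -0.55, limma adjusted p = 0.0289). Gins2 fell by 0.55 on its brightest probe (limma adjusted p = 0.0370), while its other detected probes had changes of -0.19 and -0.14 and did not pass, nor did the mean of the 3 (-0.29). Cdc45 had 9.20 and 9.09 in deletion samples, against 9.63 and 9.73 in control samples (log2 change -0.54, limma adjusted p = 0.0347). For all 5 genes the groups did not overlap.

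The activators of firing did not pass. Mcm10, which helps to switch the loaded helicase on, had 10.70 and 10.55 in deletion samples, against 11.05 and 11.29 in control samples, just outside the threshold (log2 change -0.55, limma adjusted p = 0.0517). Its second detected probe fell by 1.07 on the log2 scale (limma adjusted p = 0.0206). Cdc7 (-0.26) and Dbf4 (-0.32), the catalytic and regulatory subunits of the kinase that phosphorylates the helicase, were lower on both deletion arrays but did not pass. Cdc25a, a phosphatase that activates the S phase cyclin-dependent kinase, had 8.31 and 8.31 in deletion samples and 8.09 and 8.21 in control samples (log2 change 0.16, limma adjusted p = 0.361), and its other probe had -0.06. The firing genes that fell numbered 4 without control replicate 1, 1 without control replicate 2 (Gins1) and 0 without either deletion replicate. At an unadjusted p under 0.05, limma gave 6 lower firing genes without deletion replicate 1, where 14.9% of all tested genes were lower, and 3 without deletion replicate 2, where 14.3% were.

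Of 8 detected polymerase and primase genes, 2 fell, 6 did not pass and 0 rose, where 14.2% of all tested genes fell. The median log2 change was -0.53. Prim2, the large subunit of the primase that makes the RNA primer, had 8.48 and 8.44 in deletion samples, against 9.30 and 9.47 in control samples. It was 1.90-fold lower (log2 change -0.93, SE 0.12, limma adjusted p = 0.0106), and its second probe fell by 1.01 on the log2 scale. Pole, the catalytic subunit of the leading-strand polymerase epsilon, had 8.67 and 8.56 in deletion samples, against 9.42 and 9.48 in control samples (log2 change -0.83, limma adjusted p = 0.0121). Both genes were lower on each deletion array, while a dimmer Pole probe had a change of -0.05 and the mean of both Pole probes was -0.44, which passed.

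The other subunits of the alpha complex, Pola2 (log2 change -0.70, limma adjusted p = 0.0531) and the catalytic primase subunit Prim1 (-0.46, adjusted p = 0.0530), missed the threshold narrowly. Pola2 had 8.83 and 8.68 in deletion samples, against 9.24 and 9.67 in control samples, with no overlap. For the lagging-strand polymerase delta, the catalytic Pold1 (-0.33) and the accessory Pold3 (-0.59) did not pass and did not overlap between groups. The groups overlapped for Pold2 (-0.13), another accessory subunit of delta, and for Pole2 (-0.13), the second subunit of epsilon, which was detected on 1 array in each group. The polymerase genes that fell numbered 4 without control replicate 1, with Pola2 and Pold3 added, 2 without control replicate 2 and 0 without either deletion replicate, where limma gave 3 lower genes in each case at an unadjusted p under 0.05, against 14.9% of all tested genes without replicate 1 and 14.3% without replicate 2. The polymerase count depended on background correction too, with 5 lower genes when none was applied, where 16.5% of all tested genes were lower.

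Clamp and Okazaki fragment genes split within the clamp loader. Of 8 genes, 4 fell, 4 did not pass and 0 rose, where 14.2% of all tested genes fell. The median log2 change was -0.71. Fen1, the nuclease that trims the flap at the end of each Okazaki fragment, had 10.99 and 10.92 in deletion samples, against 12.08 and 12.04 in control samples. It was 2.14-fold lower with little spread within groups (log2 change -1.10, SE 0.11, limma adjusted p = 0.00605). Lig1, the ligase that seals the trimmed fragments, had 10.52 and 10.34 in deletion samples, against 11.35 and 11.47 in control samples (log2 change -0.98, SE 0.13, limma adjusted p = 0.0104). Both enzymes of fragment maturation were thus lower on every deletion array. Pcna, the sliding clamp itself, had 7.39 and 7.59 in deletion samples, against 8.44 and 7.92 in control samples. The groups did not overlap, but the control arrays lay far apart, and Pcna did not pass (log2 change -0.69, SE 0.21, limma adjusted p = 0.0746). Without control replicate 2 it was among the lower genes.

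Replication factor C, the 5-subunit loader that opens the clamp, had 2 lower subunits. Rfc4 had 9.72 and 9.57 in deletion samples, against 10.70 and 10.58 in control samples (log2 change -0.99, limma adjusted p = 0.00951), and its second probe fell by 1.07. Rfc3 had 8.33 and 8.18 in deletion samples, against 9.17 and 8.79 in control samples (log2 change -0.72, limma adjusted p = 0.0408), and the mean of its probes did not pass (-0.63). Rfc1 (-0.30), the large subunit, Rfc2 (-0.10) and Rfc5 (-0.14) did not pass. Rfc2 had 11.72 and 11.85 in deletion samples and 11.90 and 11.86 in control samples, and its other probes ranged from -0.22 to 0.21 with none passing. Rfc5 had 9.91 and 10.05 in deletion samples and 10.16 and 10.08 in control samples, and a dimmer probe had a change of 0.38 that did not pass. The differences between subunits were not tested. The clamp genes that fell numbered 3 without control replicate 1, 5 without control replicate 2, 1 without deletion replicate 1 (Fen1) and 0 without deletion replicate 2, where limma gave 3 at an unadjusted p under 0.05, against 14.3% of all tested genes.

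Among genes that bind single strands or protect the fork, 2 of 5 fell, 3 did not pass and 0 rose. The share that fell was 14.2% over all tested genes, and the median log2 change of the 5 was -0.44. Rpa3, the small subunit of replication protein A, which coats single-stranded DNA, had 10.62 and 10.50 in deletion samples, against 11.28 and 11.33 in control samples. It was 1.68-fold lower (log2 change -0.75, SE 0.12, limma adjusted p = 0.0159), with the groups apart. Rpa1, the large subunit, had 12.30 and 12.28 in deletion samples, against 12.77 and 12.75 in control samples (log2 change -0.47, limma adjusted p = 0.0388). The middle subunit Rpa2 overlapped between groups on its brightest probe (-0.06), yet a second probe fell (-0.81, limma adjusted p = 0.0197). Timeless and Tipin form the complex that holds polymerases and helicase together at the fork. Tipin did not pass on its brightest probe (-0.44), and a dim probe fell (-0.71, limma adjusted p = 0.0432). Timeless had 9.84 and 9.65 in deletion samples, against 10.13 and 10.11 in control samples (log2 change -0.38, limma adjusted p = 0.0896), with other probes at -0.49 and 0.22. The count was 1 without either control replicate and 0 without either deletion replicate, where limma gave 1 lower gene in each case at an unadjusted p under 0.05, against 14.9% and 14.3% of all tested genes.

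All 3 genes of chromatin assembly and maintenance fell, with a median log2 change of -0.68, where 14.2% of all tested genes fell. Chaf1a, the large subunit of chromatin assembly factor 1, which deposits histones behind the fork, had 9.16 and 9.21 in deletion samples, against 10.02 and 10.22 in control samples. It was 1.91-fold lower (log2 change -0.93, SE 0.13, limma adjusted p = 0.0114). Its partner Chaf1b had 10.58 and 10.41 in deletion samples, against 11.18 and 11.15 in control samples (log2 change -0.67, limma adjusted p = 0.0221). Uhrf1, which reads hemimethylated DNA and recruits the maintenance methyltransferase, had 11.74 and 11.85 in deletion samples, against 12.46 and 12.50 in control samples (log2 change -0.68, limma adjusted p = 0.0188), but with a dim second probe averaged in it did not pass (-0.46). None of the 3 overlapped between groups. The count was 2 without control replicate 1, 1 without control replicate 2 and 0 without either deletion replicate, where limma gave all 3 as lower at an unadjusted p under 0.05, against 14.9% and 14.3% of all tested genes.

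Single probes bore on how firmly a gene's value could be read. Over the 80 detected probes, 35 fell, 45 did not pass and 0 rose, where 13% of all tested probes fell and 14% rose. Only 1 probe represents 23 of the genes on the array. Of the 20 genes with more than 1 detected probe, 8 had probes of opposite sign: Orc4, Mcm6, Mcm7, Cdc25a, Rfc2, Rfc5, Lig1 and Timeless. No probe of these 8 passed in the higher direction. The second Mcm7 probe had 8.52 and 8.35 in deletion samples and 8.32 and 6.92 in control samples (log2 change 0.82, SE 0.47, limma adjusted p = 0.253). The control arrays differed from each other by more than this change. The brightest Mcm6 probe had 11.54 and 11.54 in deletion samples, against 12.07 and 12.44 in control samples, and another bright probe fell too (-0.59), while the remaining probes had -0.37 and, for a dim one, 0.18, neither passing. For Lig1 a second probe fell (-0.89), another had -0.51 without passing, and the dimmest had 0.24, while the mean of the probes, -0.54, passed. Orc5, Cdc6, Prim2 and Rfc4 fell on both of their detected probes.

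**Figure D4:**
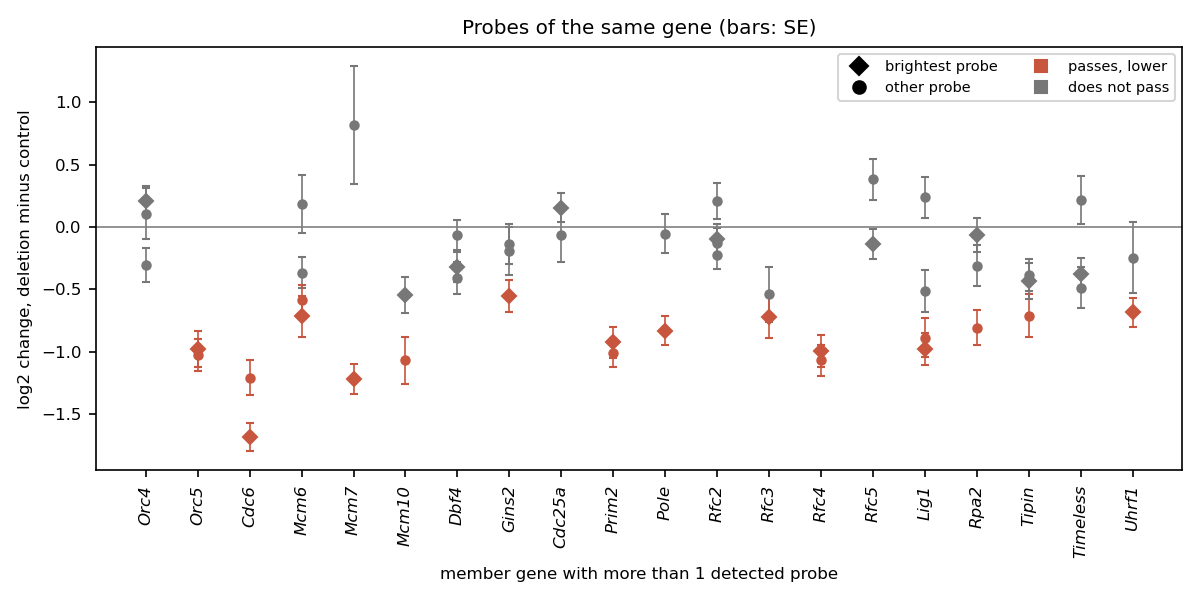
Log2 change, deletion minus control, of every detected probe of the 20 genes with more than 1, with the brightest probe as a diamond, other probes as circles, and SE bars. Red marks probes that fell (adjusted p under 0.05) and grey those that did not pass. The second Mcm7 probe, at 0.82, is the highest and has the widest bar.

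Other genes of DNA replication and of the cycle around it were taken from lists by role, which, like the members, were drawn up with earlier results of these data known. Of 42 further replication genes detected, 16 fell and 1 rose, with a median log2 change of -0.41. Among all tested genes 14.2% fell and 14.8% rose. Recql4, a helicase that acts in origin firing, had 7.96 and 8.08 in deletion samples, against 9.15 and 9.43 in control samples (log2 change -1.27, limma adjusted p = 0.00785). Dscc1 (-1.26) and Chtf18 (-1.12), subunits of an alternative clamp loader, fell by similar amounts. The single rise was Mcmbp, which binds and unloads MCM complexes, with 10.41 and 10.53 in deletion samples, against 9.89 and 9.93 in control samples (log2 change 0.56, limma adjusted p = 0.0310). It did not pass when any 1 array was left out, and the lower genes of this list then numbered 13 and 9 without control replicate 1 or 2, and 2 and 1 without deletion replicate 1 or 2.

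Genes of deoxynucleotide supply were lower in part, with 5 of 11 genes lower, 1 higher and a median of -0.52. The shares over all tested genes were 14.2% lower and 14.8% higher. Rrm2, the S phase subunit of ribonucleotide reductase, had 8.61 and 8.68 in deletion samples, against 10.10 and 10.43 in control samples (log2 change -1.63, limma adjusted p = 0.00540). Rrm2b, the subunit known as a target of p53, fell too (-1.44, limma adjusted p = 0.00415). Shmt1, an enzyme of folate metabolism that feeds thymidylate synthesis, rose, with 9.50 and 9.72 in deletion samples, against 8.16 and 8.25 in control samples (log2 change 1.40, limma adjusted p = 0.00527). The lower genes numbered 2 without either deletion replicate, and Shmt1 rose under all 4 omissions.

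The regulators of entry into S phase moved in both directions, with 8 of 25 lower, 3 higher and a median of -0.28. Of all tested genes 14.2% were lower and 14.8% higher. Cdkn1a, which encodes the cyclin-dependent kinase inhibitor p21, had 10.01 and 10.45 in deletion samples, against 7.08 and 6.82 in control samples (log2 change 3.28, SE 0.20, limma adjusted p = 0.00210). Ccnd1, which encodes cyclin D1, rose as well (2.53, limma adjusted p = 0.00176). E2f2, an activating member of the E2F family, had 8.94 and 9.34 in deletion samples, against 11.33 and 11.22 in control samples (log2 change -2.13, limma adjusted p = 0.00382). These 3 calls held under every omission of 1 array, while the lower genes of the list numbered 5 without either deletion replicate. Against 14.2% of all tested genes, mitosis genes fell in 16 of 26 cases, with a median of -0.72. Among them were Cdc25b (-1.39), a phosphatase that opens mitosis, Ccnb1 (-1.18), which encodes cyclin B1, and Mki67 (-1.05), the gene of the proliferation antigen Ki-67. Ttk, a kinase of the spindle checkpoint, was not detected in deletion samples and was at least 2.01-fold lower (limma adjusted p = 0.0146). That bound sets the control mean against the higher, on each deletion array, of the probe's own signal and the lowest detected signal. The mitosis count dropped to 1 without deletion replicate 1 and to 3 without deletion replicate 2.

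Markers of several blood cell types differed between the groups as well, and their part in the replication result was not tested. Among all tested genes, 14.2% fell and 14.8% rose. Of 19 detected erythroid markers, 17 fell, with a median log2 change of -3.48, and the summed linear level of the list was 16796 and 8100 in deletion samples, against 92356 and 91492 in control samples. Klf1 (-3.85) and Gata1 (-2.13), transcription factors of the red cell lineage, were among them, and Epb42 and Hbb-b1 were not detected on these arrays. Of 13 detected B lineage markers 12 fell, with a median of -2.60, and the summed level was 3260 and 3479 in deletion samples, against 25333 and 24672 in control samples. Vpreb1, part of the surrogate light chain, was -2.58, and Pax5 was not detected. Of 13 progenitor markers, 9 rose and 2 fell, namely Kit and Myb, with a median of 0.79. The summed level of the list was 14287 and 14534 in deletion samples, against 7444 and 7529 in control samples. Cd34 was higher (1.05), Kit was lower (-0.82) and Flt3 was not detected. With the mean of its probes, Kit had a change of -0.19 and did not pass (limma adjusted p = 0.504). Of 12 T and NK markers, 9 rose (median 1.01, summed level 31736 and 25790 in deletion samples, against 13327 and 13403 in control samples), with Cd8a and Ncr1 not detected. Cd3e, a chain of the T cell receptor complex, had 11.31 and 11.10 in deletion samples, against 10.36 and 10.15 in control samples, so markers of a mature lineage were detected in this lineage-negative fraction in both groups. The markers of granulocytes and monocytes had a median of 0.04, with 2 lower and 3 higher of 13. The rises numbered 5 of 8 for megakaryocytes, 5 of 7 for mast cells and basophils and 2 of 4 for stroma and endothelium. Among the megakaryocyte markers 1 fell, Gp9 (-0.90), while none fell in the mast cell and stroma lists. The erythroid and B lineage falls numbered between 16 and 18 and between 11 and 12 when 1 array was left out. The progenitor rises were fewer, with 5 without control replicate 2, 3 without deletion replicate 1 and 1 without deletion replicate 2, and the T and NK rises numbered 2 and 4 without deletion replicate 1 or 2. In the megakaryocyte, mast cell and stroma lists the rises dropped to between 2 and 3, between 2 and 5 and between 0 and 1. Kit did not pass when any 1 array was left out, and Cd34 did not without control replicate 2 (adjusted p = 0.0580) or deletion replicate 2 (0.0772). Erythroid markers had a median of -3.78 in deletion replicate 2 and -2.87 in deletion replicate 1, and the replication genes -0.60 and -0.58 in the same samples. Whether these shifts were related was not tested.

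**Figure D5:**
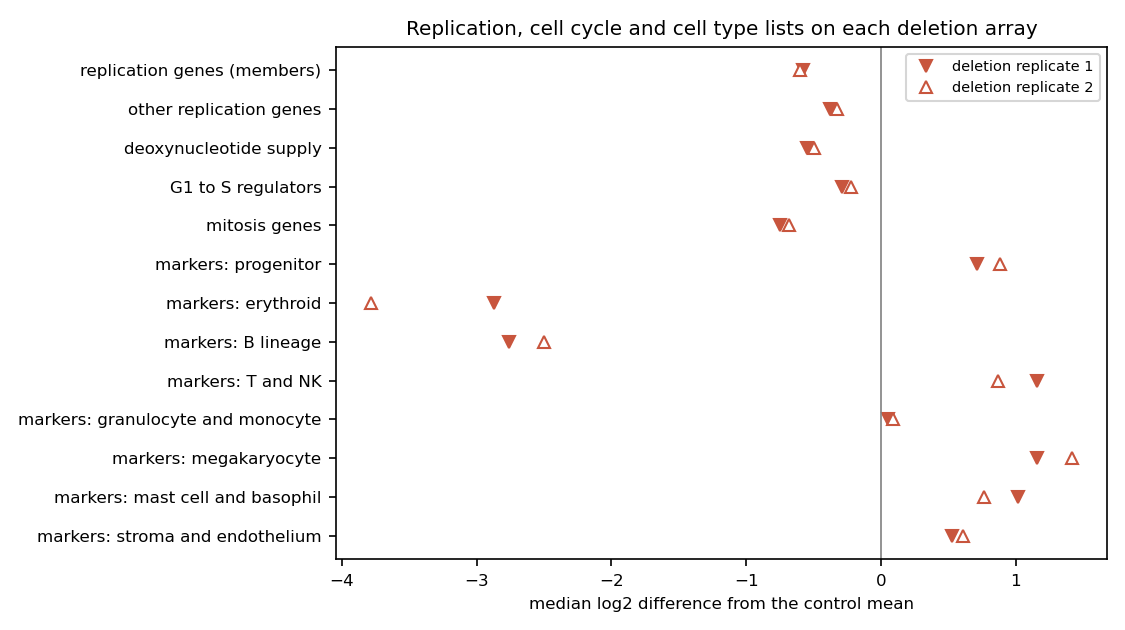
Median log2 difference from the mean of the 2 control arrays for the replication genes, the related lists and the cell type marker lists, with 1 triangle for each deletion sample (filled, replicate 1, and open, replicate 2). The replication genes lie at -0.58 and -0.60, the erythroid markers at -2.87 and -3.78, and the progenitor markers right of 0.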

How the data were processed

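RNA of 4 samples of lineage-negative bone marrow was hybridised to 1-colour Illumina mouse WG-6 v2 bead arrays, each sample on its own array. The deposited scanner table holds, per the file headers, an intensity without normalization for 45281 probes and a detection p-value for each. The authors used GenomeStudio (per the submitters' processing notes), of unstated version and background setting. A second deposited table, the series matrix, holds an intensity processed by the authors in an unstated way, linear by its range. Its array medians were 100.5 or 100.6, and it served as an alternative only.

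In R 4.3.3, limma 3.58.1 corrected the background as neqc does (negative controls inferred from detection p-values, offset 16), followed by quantile normalization and log2. The offset compresses the change of dim probes. Kept were 18367 probes whose detection p was under 0.05 on 2 or more of the 4 arrays. Each array detected between 37.5% and 39.9% of its probes, and the number of arrays limits the precision.

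Probes took their gene from the platform table, updated through Entrez ID to RefSeq (34807 probes, GRCm38.p6, 78 more unmatched), or from the array's own name where it equals a RefSeq symbol (2209). The table lists several genes for 18 probes, which were left unnamed, and 8169 had no name here. The array's own name added 2 probes to the replication genes, for Pole and Rfc3, and the latter is the brightest of Rfc3. The brightest detected probe stood for a gene.

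Deletion was compared with control by lmFit and eBayes over all tested probes (residual degrees of freedom 2, prior 2.72), with Benjamini-Hochberg adjustment and a threshold of 0.05. Values on every array are given for the largest fall of each step, for genes whose probes disagree in sign and, beyond the rule, for others that fell or narrowly missed; of the related lists the 3 largest passing changes are named. The members and lists were chosen with earlier results of these data known.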

Additional observations from a re-analysis of the deposited data

How the results depend on the processing

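Under every alternative 0 replication genes rose, also at an unadjusted p under 0.05 in limma, and no gene that fell reversed its sign. The 26 lower genes became 33 without background correction, with an intensity trend and robust prior, or on the authors' processed values. They became 30 with normexp, 29 with median scaling or with detection p under 0.01 on all 4 arrays, 28 with cyclic loess, 26 with the mean of all detected probes and 23 with no detection filter. The lower share of all tested genes, 14.2% above, moved too. It was 16.5% without background correction, 17.3% with the trend and robust prior and 16.6% on the authors' values. With normexp it was 15.9%, with median scaling or cyclic loess 14.5% and with the stricter detection 15.3%. The mean of probes gave 16.5% and no detection filter 6.78%. Requiring at least 2-fold left 4, and 5.94% of all tested genes. The median log2 change was -0.52 without background correction and -0.62 with median scaling. Leaving out 1 array gave between 1 and 24 lower genes and a median between -0.61 and -0.50. Each such omission leaves 1 group with a single sample, which is assumed to vary like the other group. With the mean of probes, Mcm6, Mcm7, Gins2, Rfc3 and Uhrf1 no longer passed, while Mcm10, Pola2, Prim1, Pold3 and Tipin were added. The same replicate number in both groups marks no shared animal in the labels, and the deviations of same-numbered arrays had a correlation of 0.0253. With the replicate number as a block 20 genes fell, where 11.1% of all tested genes did. Gmnn was added, and Cdt1, Mcm4, Cdc45, Gins2, Gins3, Gins4 and Rpa1 no longer passed. The causes of these shifts were not tested. Probes near background limit what dim genes such as Gmnn, Pole2 and Pola1 can show.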
